A study of Mus musculus with 20 samples.

Results

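The genes described here encode the building blocks of the cell's actin and microtubule skeleton and the calcium-binding proteins that join it to membranes. They were taken by symbol from the expression table of a mouse kidney study: actins, alpha-actinins, actin-related proteins, Arp2/3 subunits, thymosins, cofilin, profilins, tropomyosins, filamins, ezrin, moesin, myosins, tubulins, annexins and S100A genes, without S100a8 and S100a9, which mark neutrophils. This rule found 64 of the 6025 genes in the table and used no expression value. A symbol for villin was also searched, and villin was not analysed here. The study profiled polyadenylated RNA of the renal cortex in wild-type C57BL/6 mice aged 8 weeks. Its 4 groups were controls labelled mock (n = 8), ischemia-reperfusion injury sampled at 24 h (IRI, n = 4), rhabdomyolysis sampled at 24 h (n = 4) and cisplatin sampled at 72 h (n = 4). IRI stops and restores renal blood flow, rhabdomyolysis loads the kidney with the contents of broken-down muscle, and cisplatin is a DNA-damaging drug taken up by tubule cells. The series text speaks of both mock and vehicle controls, while the label of each control reads mock. Sex, cisplatin dose, duration of ischemia and the agent that caused rhabdomyolysis are not given in the sources used here. The libraries are called biological replicates there and are referred to below as mice, numbered within each group, and p-values measure only the spread between them.

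Actin filaments form the brush border, the cortex and the stress fibres of renal tubule cells, and microtubules carry vesicles and build the mitotic spindle and the cilium. Ischemic tubule cells are known to lose their brush border and their ordered actin, then to flatten, spread and rebuild polarity during repair. Annexins bind phospholipid membranes when calcium is present, and several S100 proteins pair with them. S100a10, for example, forms a tetramer with Anxa2 under the plasma membrane. Many actin genes are targets of SRF, a transcription factor whose coactivator MRTF is released when free actin monomers run low.

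Expression is given in CPM, that is, reads scaled to a common library size, as deposited by the authors. Recovered reads in the table numbered 3.48 to 5.40 M (mega) per library. Fold changes were tested with limma on log2(CPM + 1) against the 4 controls whose library identifiers lie in the same range, controls 1 to 4 for IRI and controls 5 to 8 for rhabdomyolysis and cisplatin, and a gene was called at an adjusted p under 0.05. Rhabdomyolysis and cisplatin therefore share their controls. The table itself holds genes that differ from the controls by at least 1.53-fold in 1 or more injuries, so every count below describes a set already chosen for change. In the 4 controls of one range against those of the other, 0 of the 60 members tested and 0 of 5672 genes were called by limma, with 3 members and 454 genes at an unadjusted p under 0.05.

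Most of the cytoskeletal genes rose in every injury. Of the 60 members whose mean reached 1 CPM, 47 were higher and 9 lower in IRI, where 40.6% of all genes tested were called higher and 40.1% lower. In rhabdomyolysis 51 members were higher and 9 lower, beside 48.8% and 46.5% of all genes. In cisplatin 49 were higher and 7 lower, beside 47.8% and 44.0% of all genes. The members' share of higher calls thus lay above the share among all genes in each injury, at 78.3%, 85.0% and 81.7%, and their share of lower calls lay below it. Their median log2 fold change was 0.90 in IRI, 1.45 in rhabdomyolysis and 1.10 in cisplatin, beside 0.08, 0.31 and 0.30 for all 5672 genes. Of the members, 47 of 60 were called higher and 9 lower in both IRI and rhabdomyolysis, beside 37.99% and 39.2% of all genes, and 46 and 7 in both IRI and cisplatin, beside 37.4% and 37.3%. Opposite calls were made for 0 members in either pair, and for 0.494% and 0.229% of all genes. Uncalled members were Myo18b, S100a4, Tuba8 and Tubb4a in IRI and Myo18b, Myo3b, Myo7b and Tmsb15l in cisplatin. In rhabdomyolysis 60 of 60 were called, where 95.3% of all genes were. These counts include 4 members that reached a mean of 1 CPM only through 1 group, Myo18b and S100a14 through rhabdomyolysis and Tuba8 and Tubb4a through cisplatin, so their differences in that group follow in part from the filter and are given without a p-value.

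Summed over the 64 members, expression was 6097 to 7593 CPM in the controls, 13219 to 14135 in IRI, 17690.4 to 18915 in rhabdomyolysis and 13952 to 16929 in cisplatin. The 3 injury groups did not overlap the controls, and rhabdomyolysis lay above the other groups in this sum. Actb and Actg1 alone supplied 1326 to 2107 CPM of it in the controls and 4019.0 to 4658 in rhabdomyolysis.

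**Figure D1:**
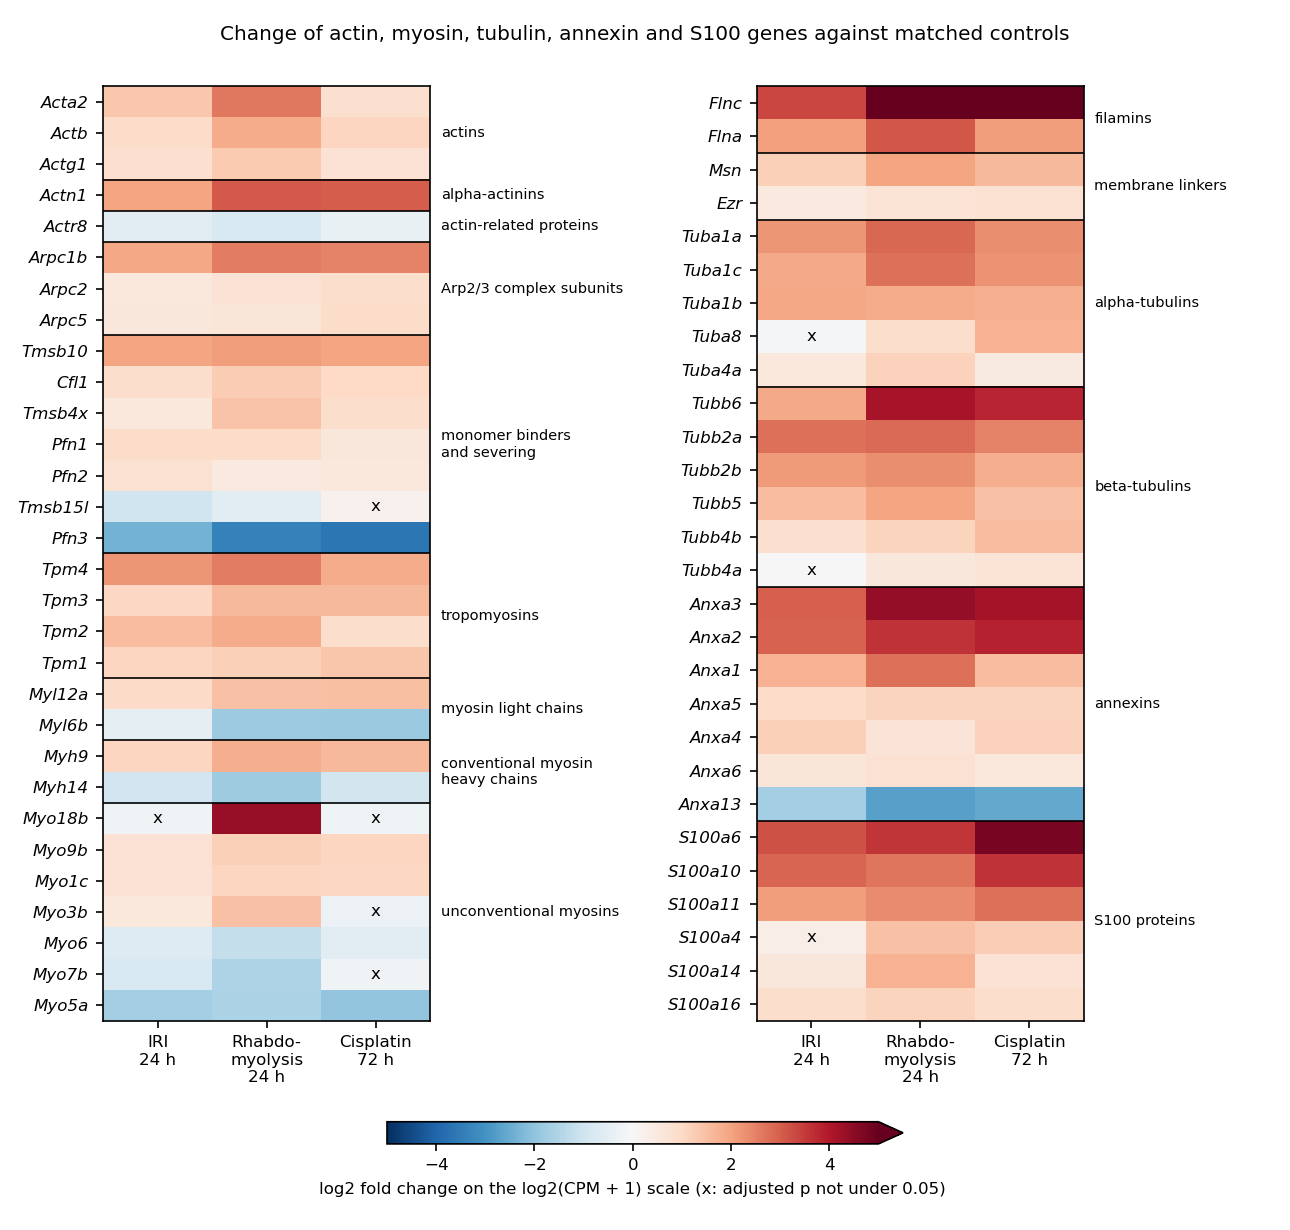
Log2 fold change on the log2(CPM + 1) scale of 58 of the 60 members tested, 1 row per gene grouped by role and 1 column per injury against its 4 matched controls (n = 4 in each group); red is higher, blue is lower, crosses mark values with an adjusted p of 0.05 or more, and the colour scale ends at 5. Most rows are red in each column, Flnc is the darkest, and the blue rows include Pfn3, Anxa13, Myo5a, Myl6b and Myh14.

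Marker genes of several cell types were looked up in the table, which holds only genes that differ by at least 1.53-fold in some injury. Markers that stayed flat cannot appear there, so a change of those summed here was fixed in advance. Of 13 proximal tubule markers 11 were in the table. Their summed level was 12953 to 18961 CPM in the controls. It was 3692 to 4583 in IRI, 2263 to 2937 in rhabdomyolysis and 1569 to 2975 in cisplatin. Markers of the loop and distal nephron (5 of 10) had 1841 to 3136 CPM in the controls and 427 to 832, 531 to 757 and 409 to 503 in IRI, rhabdomyolysis and cisplatin, the order kept for the lists that follow. Smooth muscle and pericyte markers (5 of 10: Tagln, Smtn, Des, Notch3 and Pdgfrb) summed to 119 to 176 CPM in the controls, 248 to 317 in IRI, 449 to 659 in rhabdomyolysis and 207 to 328 in cisplatin. Fibroblast markers (5 of 8) went from 56.9 to 151 CPM to 276 to 386, 259 to 890 and 179.6 to 560.1, and endothelial markers (4 of 9) from 174 to 360.2 to 341 to 381, 601 to 857 and 381 to 537. Myeloid markers (11 of 14) went from 78.9 to 107 CPM to 125 to 151, 131 to 273 and 203 to 296. Podocyte markers (3 of 6: Podxl, Synpo and Nes) went from 189 to 535 CPM to 534 to 678, 759 to 1097 and 604 to 777, while those for lymphocytes (2 of 9) held at most 3.73 CPM and those for dividing cells (3 of 11) at most 11.6 CPM in any library. In each list 0 markers were at 0 throughout a group. In bulk tissue, fewer cells of a type and less RNA per cell cannot be told apart, and the part of these shifts in the members' changes was not tested.

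Among the actins, the cytoplasmic pair Actb and Actg1 rose in each injury and Acta2, the smooth muscle actin, was highest in rhabdomyolysis. Actb was at 399 to 796 CPM (median 587) in the 8 controls. It stood at 1312, 970.2, 1198 and 1142 CPM in IRI mice 1 to 4, 1930.2, 1713, 1967 and 1920.5 in the rhabdomyolysis mice and 1018, 1305, 1148 and 966 in the cisplatin mice, an order of mice kept below. The rhabdomyolysis mice were highest and none of the injured groups overlapped its controls. The log2 fold changes of Actb were 0.93, 1.84 and 1.07 (SE 0.16, limma adjusted p 3.15e-05, 6.44e-10 and 3.52e-06). Actg1 went from 927 to 1325 CPM (median 981) to 2246, 1777, 2034 and 1976 in IRI, 2485, 2306, 2422 and 2738 in rhabdomyolysis and 1359.8, 1823, 1829.5 and 1566 in cisplatin, with log2 fold changes of 0.83, 1.31 and 0.71 (SE 0.14, limma adjusted p 1.53e-05, 8.28e-09 and 6.22e-05). With quantile normalization these values were larger, at 1.66 in IRI and 1.78 in cisplatin for Actb and 1.60 and 1.53 for Actg1. By annotation, 51.1% of the 100-base stretches in the longest coding Actg1 transcript also stand in transcripts of other genes, mainly a pseudogene, so its level is less certain than that of Actb, where the share is 1.10%.

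A CArG box, the element bound by SRF, was found in the promoter of Actg1. RefSeq promoters (GRCm38.p6) matched 51 of the 64 members by symbol, and the 250 bases before each start were searched on both strands for the CArG box. It stood in 1 of 51 members and in 1.62% of all 27025 promoters searched. The sequence is shown because the actins rose together. It covers chr11:120348496-120348745 on the minus strand and is written 5′ to 3′ in the direction of transcription, with the box in capitals, 90 bases before the start:

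Actg1: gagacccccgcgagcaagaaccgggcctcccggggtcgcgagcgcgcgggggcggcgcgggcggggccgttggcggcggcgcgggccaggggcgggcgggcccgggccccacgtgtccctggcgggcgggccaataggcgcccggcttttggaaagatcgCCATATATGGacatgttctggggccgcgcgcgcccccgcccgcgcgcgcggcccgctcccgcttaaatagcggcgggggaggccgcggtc

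A match is a description of letters and not evidence of binding, and the window holds no more than the first 250 bases.

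Acta2 was at 21.4 to 32.8 CPM (median 25.8) in the controls. It reached 78.8, 54.5, 59.4 and 109 in IRI, 261, 144, 151 and 114 in rhabdomyolysis and 45.9, 50.3, 55.7 and 31.1 in cisplatin. Rhabdomyolysis mouse 1 was well above its group, and cisplatin mouse 4 lay just inside the range of the 8 controls. The log2 fold change was 1.33 for IRI, 2.62 for rhabdomyolysis and 0.81 for cisplatin (SE 0.23, limma adjusted p 1.87e-05, 3.46e-10 and 0.00201). Rhabdomyolysis exceeded cisplatin by 1.81 (7.03e-07), and the IRI effect differed from that of rhabdomyolysis by −1.29 (0.00208). The summed level of the 5 smooth muscle and pericyte markers was 659 CPM in rhabdomyolysis mouse 1, which had the most Acta2, and 207 CPM in cisplatin mouse 4, which had the least of the injured mice. The part of these cells in the Acta2 values was not tested.

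**Figure D2:**
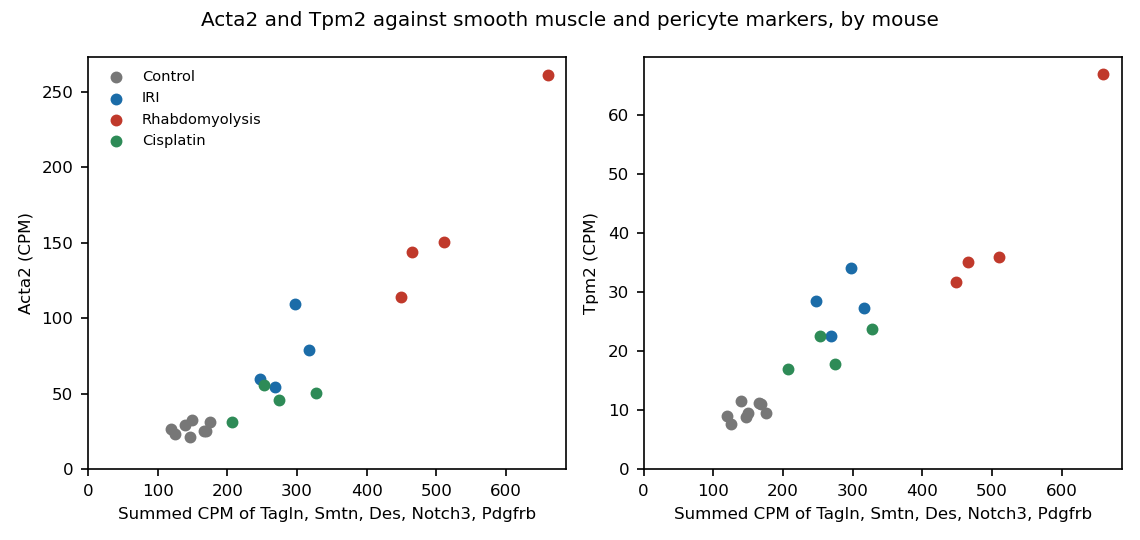
CPM of Acta2 (left) and Tpm2 (right) in each of the 20 mice against the summed CPM of Tagln, Smtn, Des, Notch3 and Pdgfrb, 1 point per mouse coloured by group. Rhabdomyolysis mouse 1 stands at the upper right of both panels with 659 CPM of markers, 261 CPM of Acta2 and 66.9 CPM of Tpm2, while the 8 controls stand at the lower left.

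Flnc, Flna and Actn1, which crosslink actin, were called higher in each injury. Flnc, the filamin typical of muscle, had the largest fitted fold change of the 60 members in IRI, rhabdomyolysis and cisplatin. The controls held 0.134 to 0.942 CPM (median 0.434), between 1 and 7 reads each. Flnc stood at 11.01, 12.0, 20.4 and 15.6 in IRI, 103, 168, 188 and 79.7 in rhabdomyolysis and 51.4, 55.6, 49.4 and 46.9 in cisplatin. No 2 of the 4 groups overlapped. Summed over mice, this was 27.4-fold the matched controls in IRI (95% counting interval 16.7 to 48.3), 462-fold in rhabdomyolysis (234 to 1070.4) and 172-fold in cisplatin (86.9 to 398), where the intervals cover counting error only because reads are not tagged by molecule. On the fitted scale the log2 fold changes were 3.33, 6.62 and 5.31 (SE 0.23, limma adjusted p 3.72e-11, 1.29e-16 and 5.15e-15).

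Flna, the broadly expressed filamin, rose from 39.4 to 72.7 CPM (median 64.3) to 245, 219, 209 and 219 in IRI, 634, 531, 556 and 527 in rhabdomyolysis and 239, 346, 351 and 197 in cisplatin. Its log2 fold changes were 2.06, 3.11 and 2.08 (SE 0.18, limma adjusted p 2.15e-09, 7.73e-13 and 8.65e-10). Actn1, the alpha-actinin of stress fibres and focal adhesions, stood at 27.4 to 39.7 CPM in the controls and at 140.0, 144, 122 and 135 in IRI, 330.1, 316, 310.0 and 271 in rhabdomyolysis and 256, 359.7, 358 and 252 in cisplatin. Rhabdomyolysis and cisplatin overlapped for Actn1 and IRI lay between them and the controls. Its mean was 3.96-fold that of the matched controls in IRI, 8.55-fold in rhabdomyolysis and 8.54-fold in cisplatin (limma adjusted p 2.96e-11, 6.18e-15 and 7.19e-15).

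Both linkers between actin and the membrane were called higher. Moesin is the linker of endothelial and blood cells, and ezrin that of the epithelial brush border. Ezr went from 423 to 518 CPM (median 479) to 652, 632, 684 and 787 in IRI, 783, 780.5, 629 and 827 in rhabdomyolysis and 783, 820.5, 805 and 765 in cisplatin, with log2 fold changes of 0.49, 0.69 and 0.77 (SE 0.10, limma adjusted p 0.000214, 1.80e-06 and 5.80e-07). Quantile normalization gave Ezr 1.15 in IRI and 1.29 in rhabdomyolysis. Msn went from 174 to 239 CPM (median 203) to 508, 479.6, 485 and 436 in IRI, 739, 846, 849 and 762 in rhabdomyolysis and 552, 675, 711 and 551 in cisplatin, with log2 fold changes of 1.19, 1.97 and 1.61 (SE 0.12, limma adjusted p 1.07e-08, 9.54e-13 and 4.59e-11). The summed levels of the endothelial and myeloid markers rose as well, and their part in the Msn values was not tested.

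Subunits of the Arp2/3 complex, which nucleates branched actin, were called higher in each injury (3 of 3, beside 40.6%, 48.8% and 47.8% of all genes in IRI, rhabdomyolysis and cisplatin). Arpc1b went from 33.8 to 46.9 CPM (median 35.4) to 158, 162, 141 and 146 in IRI, 255, 196, 208 and 196 in rhabdomyolysis and 159, 224, 233 and 193 in cisplatin. All 12 injured mice were above all controls, with fold changes of the means of 3.90, 6.10 and 5.76 (limma adjusted p 1.15e-11, 3.25e-14 and 7.20e-14). Arpc2 and Arpc5 had smaller fold changes, with log2 fold changes of 0.54, 0.71 and 0.88 and of 0.58, 0.62 and 0.91 (limma adjusted p at most 0.000170). Arpc1b is best known from blood cells, whose myeloid markers rose in the same mice, and the part of those cells was not tested. Actr8, an actin-related protein of a nuclear chromatin remodelling complex and not of filaments, was lower, at 34.1 to 57.9 CPM in the controls, 34.7, 34.5, 27.4 and 39.8 in IRI, 21.3, 24.3, 25.1 and 31.4 in rhabdomyolysis and 34.0, 33.2, 32.4 and 35.3 in cisplatin. Its log2 fold changes were −0.53, −0.77 and −0.37 (limma adjusted p 0.00349, 5.81e-05 and 0.0256). The cisplatin call was lost without control 5, control 7 or cisplatin mouse 3, with values of −0.33, −0.28 and −0.35, and with 75th percentile scaling.

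Among the proteins that bind actin monomers, Tmsb10, Tmsb4x, Cfl1, Pfn1 and Pfn2 rose in each injury and Pfn3 fell. Tmsb10, a thymosin that sequesters monomers, went from 44.6 to 56.3 CPM (median 51.6) to 232, 221, 215 and 165 in IRI, 289, 213, 226 and 169.8 in rhabdomyolysis and 173, 222, 225 and 201 in cisplatin. The injuries were close together, with means 4.03, 4.38 and 4.00 times the control means (limma adjusted p 5.55e-11, 5.24e-12 and 2.25e-11), and 21.5% of its transcript stretches are shared with other genes. Tmsb4x, the more abundant thymosin, had log2 fold changes of 0.53, 1.44 and 0.87, and Cfl1, which severs filaments, of 0.86, 1.25 and 0.98 (limma adjusted p at most 0.00157). Pfn1, the general profilin that feeds monomers to growing filaments, had values of 0.91, 0.93 and 0.56, and Pfn2 had 0.78, 0.50 and 0.54 (limma adjusted p at most 0.000514).

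Pfn3, a profilin described mainly in testis, was present in the control cortex at 39.4 to 62.1 CPM (median 53.8). It was at 11.1, 7.46, 9.41 and 6.41 in IRI, 6.43, 3.15, 3.52 and 5.34 in rhabdomyolysis and 3.85, 3.33, 3.91 and 3.58 in cisplatin. Every injured mouse was below every control. The means were 5.56, 12.2 and 15.3 times lower than in the matched controls, with log2 fold changes of −2.36, −3.38 and −3.61 (SE 0.18, limma adjusted p 1.65e-10, 1.22e-13 and 5.86e-14). Tmsb15l was called lower in IRI and rhabdomyolysis, at −0.99 and −0.55, and uncalled in cisplatin at 0.22 (limma adjusted p 0.000236, 0.0179 and 0.316). Its controls differed between the ranges, at 4.46 to 6.76 CPM and 1.92 to 2.90 CPM, 61.4% of its transcript stretches stand in other genes, and the rhabdomyolysis call was lost in 2 of 16 alternatives.

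Tropomyosins, which line the actin filament and set which proteins can bind it, were called higher in all 3 injuries (4 of 4, where 40.6%, 48.8% and 47.8% of all genes were called higher). Tpm4, found in stress fibres of many cells, went from 79.7 to 106 CPM (median 98.7) to 389.6, 432, 426 and 428 in IRI, 699.8, 585, 552 and 570.0 in rhabdomyolysis and 323, 418, 409 and 311 in cisplatin. Group means were 4.59, 6.00 and 3.64 times those of the controls used for each (limma adjusted p 6.76e-13, 1.19e-14 and 3.51e-12). Tpm2 went from 7.61 to 11.5 CPM (median 9.52) to 27.3, 22.6, 28.5 and 34.1 in IRI, 66.9, 35.2, 35.9 and 31.7 in rhabdomyolysis and 17.9, 23.8, 22.6 and 16.9 in cisplatin, and rhabdomyolysis mouse 1 again stood apart. Its log2 fold changes were 1.54, 1.84 and 0.86 (SE 0.18, limma adjusted p 1.88e-07, 4.13e-09 and 0.000180). Tpm1 had 1.08 to 1.37 and Tpm3 1.02, 1.64 and 1.62 (limma adjusted p at most 2.55e-07), and 45.7% of the Tpm3 stretches are shared with Tpm3-rs7.

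Myosins were called in both directions. Of the 12 genes tested, 6 were higher and 5 lower in IRI and 5 and 4 in cisplatin. In rhabdomyolysis 7 were higher and 5 lower, and the 7 include Myo18b, which reached a mean of 1 CPM only through those mice. These counts lie near the shares among all genes tested, which were 40.6% higher and 40.1% lower in IRI, 48.8% and 46.5% in rhabdomyolysis and 47.8% and 44.0% in cisplatin. Myh9, the heavy chain of nonmuscle myosin IIA that contracts stress fibres, rose from 132 to 240.3 CPM (median 215) to 386, 388, 391 and 351 in IRI, 735, 843, 748 and 690.2 in rhabdomyolysis and 628, 738, 772 and 542 in cisplatin. All injured mice exceeded all controls, with log2 fold changes of 1.07, 1.81 and 1.63 (SE 0.15, limma adjusted p 2.22e-06, 2.68e-10 and 2.61e-09). Myh14, its paralog in nonmuscle myosin IIC of epithelia, fell from 35.6 to 53.3 CPM (median 44.6) to 20.5, 20.2, 20.9 and 16.8 in IRI, 12.3, 17.7, 10.8 and 13.3 in rhabdomyolysis and 32.8, 20.9, 19.4 and 30.2 in cisplatin, and the lowest group mean was that of rhabdomyolysis. Its log2 fold changes were −0.97, −1.79 and −0.92 (SE 0.16, limma adjusted p 1.63e-05, 8.90e-10 and 2.26e-05).

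Of the 2 myosin light chains 1 rose and 1 fell. Myl12a, a regulatory light chain of nonmuscle myosin, went from 108 to 181 CPM (median 129) to 277, 273, 292 and 292 in IRI, 368, 298, 324 and 352 in rhabdomyolysis and 294, 388, 368 and 324 in cisplatin, with log2 fold changes of 0.97, 1.46 and 1.49 (limma adjusted p 1.15e-06, 7.64e-10 and 9.88e-10), and 24.5% of its stretches are shared with Myl12b. Myl6b, an essential light chain, went from 15.9 to 23.1 CPM (median 20.5) to 14.3, 15.2, 15.3 and 12.1 in IRI, 3.97, 6.30, 5.80 and 3.97 in rhabdomyolysis and 5.37, 3.13, 5.36 and 5.52 in cisplatin. The IRI mice lay just below the controls and the other injured mice far below them, with log2 fold changes of −0.44, −1.82 and −1.86 (SE 0.17, limma adjusted p 0.0245, 1.62e-09 and 2.03e-09). The IRI call was lost without control 2 (−0.39), control 3 (−0.40) or IRI mouse 4 (−0.37) and with 75th percentile scaling.

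Myo18b, an unconventional myosin of striated muscle sarcomeres, was raised in rhabdomyolysis and not in IRI or cisplatin. The controls held 0 to 0.575 CPM (median 0.196), at most 4 reads in a library. The rhabdomyolysis mice held 14.5, 19.5, 20.3 and 47.6, a total of 984 reads, while IRI and cisplatin each had 1 read in 1 of 4 mice. Summed over mice, rhabdomyolysis was 133-fold controls 5 to 8 (95% counting interval 56.7 to 409.9) and 927-fold cisplatin (166 to 36663), both limited by the few reads in the groups compared. Its fitted log2 fold change in rhabdomyolysis was 4.35, and it exceeded cisplatin by 4.55. These are descriptions, since the mean of Myo18b without the rhabdomyolysis mice was 0.113 CPM and only those mice brought it into the test. Of 10 skeletal muscle markers 1 was analysed here, Pvalb, which is also made in the distal tubule and stands in that list too, and which fell from 19.5 to 28.4 CPM in the controls to at most 0.690 CPM in rhabdomyolysis. The part of RNA from muscle in the Myo18b reads was not tested. The gene lies at chr5:112688876-112896461 of GRCm38.

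The other unconventional myosins of the brush border and of vesicle transport mostly fell or differed among injuries. Myo7b, which joins the tips of brush border microvilli, went from 74.6 to 95.5 CPM (median 83.4) to 44.1, 51.5, 49.9 and 47.4 in IRI and 25.9, 26.9, 29.7 and 31.2 in rhabdomyolysis, and was 77.3, 80.7, 68.7 and 73.6 in cisplatin. The cisplatin mice lay inside or next to the control range and the rhabdomyolysis mice far below it. The log2 fold change was −0.75 for IRI, −1.56 for rhabdomyolysis and −0.19 for cisplatin (SE 0.10, limma adjusted p 1.26e-06, 4.99e-12 and 0.0889), and without control 5 the cisplatin value was −0.25 and passed the threshold. Myo6, which drives endocytosis in the brush border, had values of −0.63, −1.19 and −0.54 (limma adjusted p 8.59e-05, 5.77e-09 and 0.000347), and quantile normalization ended the calls in IRI and cisplatin, at −0.20 and −0.12. Myo5a, a carrier of vesicles along actin, fell from 65.7 to 99.5 CPM (median 85.4) to 26.1, 22.6, 23.0 and 25.9 in IRI, 26.4, 31.3, 30.0 and 27.5 in rhabdomyolysis and 26.0, 19.8, 19.0 and 21.98 in cisplatin, or 3.39, 3.06 and 4.06 times lower (limma adjusted p 1.35e-10, 1.13e-10 and 5.09e-12). Proximal tubule markers, whose cells carry the brush border, fell in the same mice, and the part of that fall was not tested.

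Myo3b, known from sensory hair cells, stood at 3.47 to 7.13 CPM (median 4.88) in the controls, 6.69, 10.8, 8.73 and 8.01 in IRI, 15.7, 11.5, 15.9 and 15.4 in rhabdomyolysis and 4.32, 3.23, 4.58 and 2.81 in cisplatin. Only the rhabdomyolysis mice lay clear of the controls on the high side, with a log2 fold change of 1.45 (SE 0.18, limma adjusted p 1.48e-07). The IRI value of 0.52 (limma adjusted p 0.0137) was not called without control 3 (0.43), without IRI mouse 2 (0.41), after quantile normalization (0.35) or with the replicate number as a block (0.52). The cisplatin value was −0.28 (0.148) and was called lower with quantile normalization (−0.59) and with all 8 controls (−0.39). Myo1c and Myo9b were called higher in each injury, with log2 fold changes of 0.73 to 1.08 and 0.71 to 1.18 (limma adjusted p at most 3.08e-05).

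**Figure D3:**
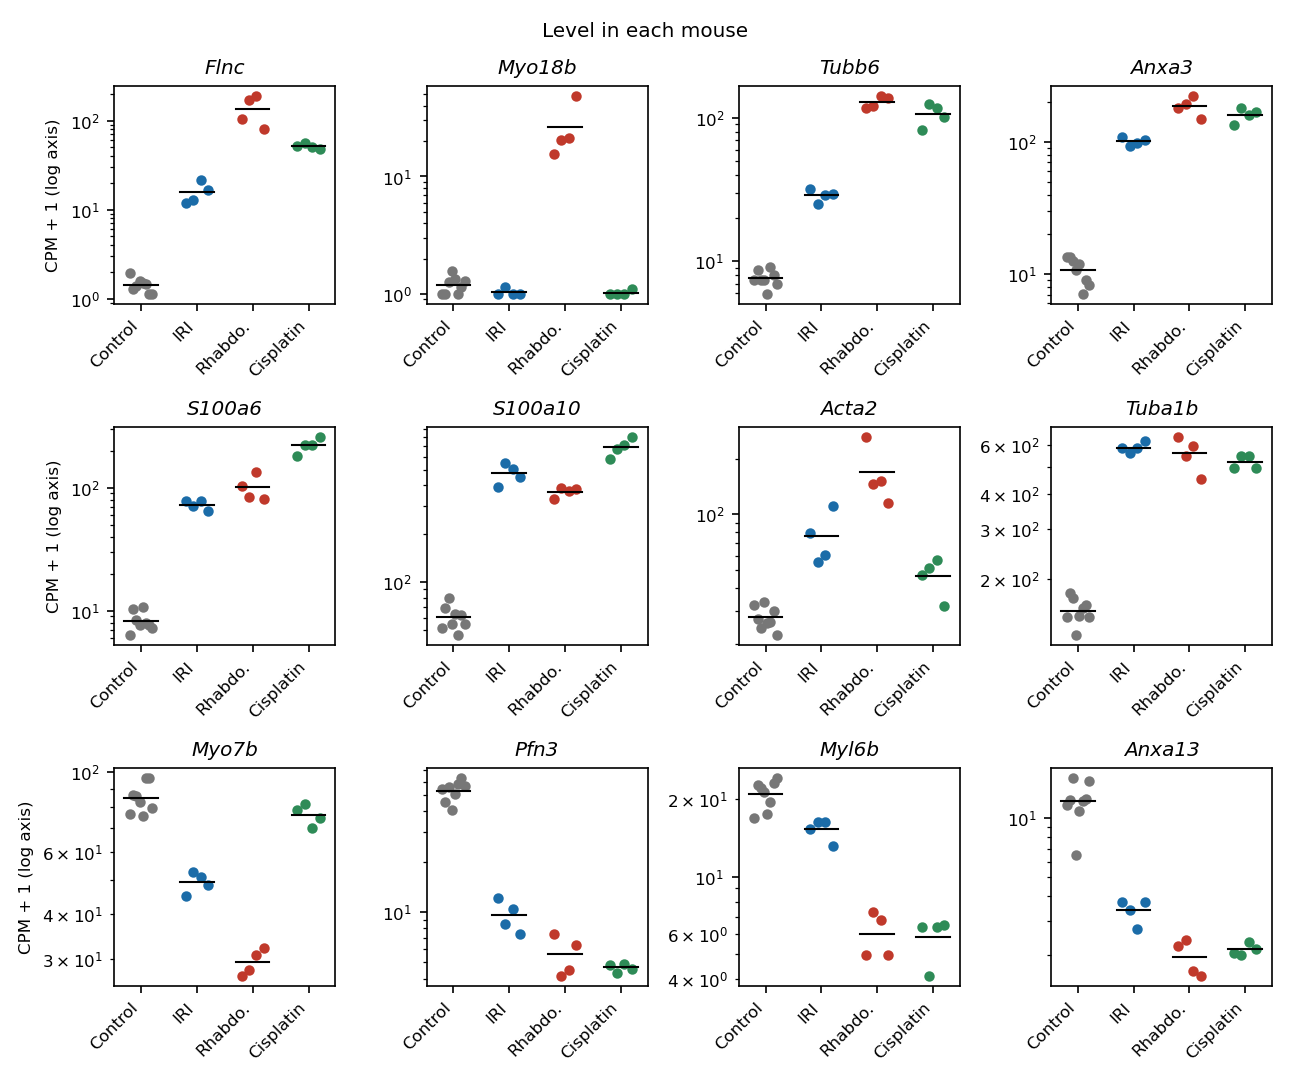
CPM + 1 on a log axis for 12 members in each mouse, with 8 controls and 4 mice per injury; points are mice and the black line is the mean of the group. Myo18b is raised only in the 4 rhabdomyolysis mice, Flnc separates the 4 groups, Myo7b in cisplatin lies at 68.7 to 80.7 CPM near the controls, and Pfn3 and Anxa13 are lower in every injured mouse than in every control.

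No tubulin was called lower. Of the 11 genes tested, 9 were higher in IRI, 11 in rhabdomyolysis and 11 in cisplatin. Of all genes tested, 40.6%, 48.8% and 47.8% were higher (80.7%, 95.3% and 91.8% called in either direction). The cisplatin count includes Tuba8 and Tubb4a, which reached a mean of 1 CPM only through the cisplatin mice. Median log2 fold changes of the tubulins were 1.89, 1.99 and 1.77, beside 0.08, 0.31 and 0.30 for all genes. Tubb6, a beta-tubulin that rises in regenerating muscle and in injured nerve, had the largest fitted fold change among the tubulins in rhabdomyolysis and cisplatin. It went from 4.94 to 8.18 CPM (median 6.46) to 30.9, 24.2, 28.1 and 28.5 in IRI, 116, 120.5, 141 and 136 in rhabdomyolysis and 80.5, 123, 116 and 101 in cisplatin. IRI formed a middle group apart from the others, with log2 fold changes of 1.89, 4.12 and 3.82 (SE 0.14, limma adjusted p 1.68e-10, 1.50e-16 and 6.91e-16). Tubb2a, a beta-tubulin abundant in neurons, went from 20.0 to 30.4 CPM (median 23.3) to 145, 166, 139 and 307 in IRI, 171, 164, 152 and 228 in rhabdomyolysis and 109.6, 155, 154 and 140.2 in cisplatin, and IRI mouse 4 was far above its group. Its log2 fold changes were 2.77, 2.85 and 2.50 (SE 0.20, limma adjusted p 6.70e-11, 9.54e-12 and 1.39e-10). Tubb2b, its neighbour on chromosome 13, had 2.14, 2.32 and 1.80, Tubb5 had 1.55, 1.99 and 1.45, and Tubb4b, common in cilia, had 0.79, 1.11 and 1.55 (limma adjusted p at most 0.000763).

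The alpha-tubulins Tuba1a, Tuba1b and Tuba1c lie side by side at chr15:98931429-99038105 of GRCm38 and share 53.4% to 69.5% of their transcript stretches with other genes, mostly with each other. Their reads may have been divided among them by the counting, so the sum is the firmer value. It was 197 to 317 CPM in the controls, 980.2 to 1157 in IRI, 1205 to 1433 in rhabdomyolysis and 913 to 1179.8 in cisplatin. As counted, Tuba1a went from 25.7 to 43.8 CPM (median 35.3) to 205, 140.3, 159.7 and 173 in IRI, 343, 194, 218 and 280.4 in rhabdomyolysis and 152, 185, 213 and 149.7 in cisplatin, with log2 fold changes of 2.22, 2.88 and 2.34 (limma adjusted p 3.50e-10, 1.24e-12 and 6.22e-11). Tuba1b had 1.93, 1.85 and 1.77, and Tuba1c 1.90, 2.77 and 2.25 (limma adjusted p at most 2.07e-08). Tubb2a and Tubb2b, which share 26.1% to 35.9% of their stretches with each other, summed to 37.4 to 49.7 CPM in the controls, 211 to 401 in IRI, 222 to 315 in rhabdomyolysis and 157 to 228 in cisplatin.

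Tuba8, an alpha-tubulin of muscle and testis, was low in the controls and highest in cisplatin. The controls held 0.321 to 0.942 CPM (median 0.465), IRI 0.524, 0.666, 0.574 and 1.03, rhabdomyolysis 2.17, 1.28, 1.14 and 1.70 and cisplatin 2.22, 5.55, 4.02 and 3.20. Reads summed over the cisplatin mice were 10.2-fold controls 5 to 8 (95% counting interval 5.41 to 21.8), and those of rhabdomyolysis 4.25-fold (2.17 to 9.29). The log2 fold change was −0.05 for IRI (limma adjusted p 0.808, with a sign that changes with the scaling) and 0.90 for rhabdomyolysis (0.000137). The cisplatin value of 1.75 is a description, since the mean of Tuba8 without the cisplatin mice was 0.849 CPM, under the filter. Tuba4a was called higher in each injury, at 0.53, 1.17 and 0.44 (limma adjusted p 0.00612, 8.86e-07 and 0.0162), and the IRI call was lost in 1 of 18 alternatives. Tubb4a had −0.01 in IRI and 0.56 in rhabdomyolysis (limma adjusted p 0.978 and 0.00887) and 0.69 in cisplatin, where its mean without the cisplatin mice was 0.973 CPM, and its rhabdomyolysis and cisplatin calls were each lost in 1 of 16 alternatives. The summed reads of Tubb4a were 2.104-fold those of controls 5 to 8 in rhabdomyolysis (95% counting interval 1.199 to 3.88) and 2.49-fold in cisplatin (1.43 to 4.55), and a pseudocount of 0.1 gave log2 fold changes of 1.201 and 1.40.

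Of 7 annexins tested 6 were called higher and 1 lower in each injury, where 40.6% of all genes were higher and 40.1% lower in IRI, 48.8% and 46.5% in rhabdomyolysis and 47.8% and 44.0% in cisplatin. The median log2 fold changes of the annexins were 1.18, 1.10 and 1.17, beside 0.08, 0.31 and 0.30 for all genes. Anxa2 went from 31.8 to 44.4 CPM (median 41.1) to 301, 347, 369 and 292 in IRI, 497, 442, 559 and 367 in rhabdomyolysis and 477, 618, 618 and 507 in cisplatin. S100a10, its partner in the tetramer, went from 45.9 to 78.9 CPM (median 57.8) to 391, 555, 507 and 449 in IRI, 326, 386, 366 and 378 in rhabdomyolysis and 585, 675, 713 and 802 in cisplatin. Both were higher in every injured mouse than in every control, but their order differed, with cisplatin clear of rhabdomyolysis for S100a10 and overlapping it for Anxa2. The log2 fold changes of Anxa2 were 2.96, 3.59 and 3.85 (SE 0.14, limma adjusted p 6.69e-14, 6.17e-16 and 2.83e-16). Those of S100a10 were 2.91, 2.69 and 3.61 (SE 0.14, limma adjusted p 1.79e-13, 1.40e-13 and 1.54e-15).

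Anxa3 rose from 6.09 to 12.5 CPM (median 10.4) to 108, 91.8, 96.6 and 103 in IRI, 181, 194, 222 and 149 in rhabdomyolysis and 134, 180.3, 159.7 and 166 in cisplatin. Group means were 8.63, 23.0 and 19.7 times those of the controls used for each (limma adjusted p 1.54e-13, 9.63e-17 and 2.63e-16), and IRI did not overlap the other injuries. Anxa1, the annexin known for damping inflammation, had log2 fold changes of 1.75, 2.74 and 1.56, Anxa4 of 1.18, 0.64 and 1.17, Anxa5 of 0.91, 1.10 and 1.12 and Anxa6 of 0.61, 0.75 and 0.52 (limma adjusted p at most 0.000336). Anxa4 was lower in rhabdomyolysis than in the other injuries, at 132 to 149 CPM against 216 to 276 in IRI and 182 to 219 in cisplatin. Anxa13, an annexin of epithelia, was the member that fell, from 5.47 to 15.1 CPM (median 11.3) to 2.75, 2.40, 1.72 and 2.75 in IRI, 1.23, 1.38, 0.665 and 0.568 in rhabdomyolysis and 1.05, 1.01, 1.34 and 1.16 in cisplatin. It was 4.44, 12.3 and 10.3 times lower than in the matched controls (limma adjusted p 4.02e-07, 1.01e-10 and 4.55e-10).

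The S100 genes lie on chromosome 3, S100a14 to S100a6 at chr3:90526849-90614414 and S100a11 with S100a10 at chr3:93520496-93564645, and 6 of 7 were tested. Of these 5 were called higher in IRI, 6 in rhabdomyolysis and 6 in cisplatin. The rhabdomyolysis count includes S100a14, which reached a mean of 1 CPM only through those mice. Of all genes, 40.6%, 48.8% and 47.8% were called higher (80.7%, 95.3% and 91.8% in either direction). Median log2 fold changes were 1.49, 2.03 and 1.99 for the S100 genes and 0.08, 0.31 and 0.30 for all genes. S100a6, calcyclin, had the largest fitted fold change among the S100 genes in each injury. The controls held 5.38 to 9.72 CPM (median 6.79), IRI 76.8, 69.9, 77.3 and 63.4, rhabdomyolysis 103, 83.2, 133 and 80.3 and cisplatin 179, 223, 222 and 258. Cisplatin lay above the other injuries without overlap. Relative to the means of the matched controls, S100a6 stood 10.0, 13.5 and 29.9 times as high, with log2 fold changes of 3.18, 3.58 and 4.73 (SE 0.17, limma adjusted p 7.35e-13, 2.45e-14 and 2.86e-16). S100a11 went from 83.6 to 145 CPM to 449 to 479 in IRI, 467 to 523 in rhabdomyolysis and 583 to 714 in cisplatin, with log2 fold changes of 2.07, 2.35 and 2.75 (limma adjusted p at most 3.29e-12), and 34.0% of its stretches are shared with other genes. S100a16 had 0.90, 1.12 and 0.86 (limma adjusted p at most 2.12e-07).

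S100a14, an epithelial S100 protein, had at most 4 reads in a control library. Its levels were 0.129 to 0.563 CPM in the controls, 0.787, 1.07, 0.919 and 1.26 in IRI, 2.93, 3.84, 3.42 and 3.52 in rhabdomyolysis and 0.934, 1.11, 1.34 and 1.36 in cisplatin. Summed reads were 2.96, 10.3 and 3.58 times those of the controls used for each (95% counting intervals 1.43 to 6.74, 5.26 to 22.9 and 1.73 to 8.33). The limma adjusted p was 0.00182 in IRI and 0.000236 in cisplatin, and each of these calls was lost in 1 alternative. For rhabdomyolysis no p is given, since the mean of S100a14 without those mice was 0.721 CPM. S100a4, a marker of fibroblasts and of some macrophages, was called in rhabdomyolysis at 1.45 (2.06 with edgeR on recovered reads) and in cisplatin at 1.24, and not in IRI at 0.33 (SE 0.20, limma adjusted p 6.89e-07, 8.16e-06 and 0.134). By annotation 50.9% of its stretches are shared with another gene model. Of 8 fibroblast markers 5 were in the table. Of these 5 were called higher in IRI, 5 in rhabdomyolysis and 4 in cisplatin, with 0 lower. Of 14 myeloid markers 11 were in the table, and 8, 10 and 9 were higher with 1 lower in each injury. Of all genes tested, 40.6%, 48.8% and 47.8% were called higher and 40.1%, 46.5% and 44.0% lower. The part of fibroblasts and myeloid cells in the S100a4 values was not tested.

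The letters TGANTCA, the form bound by AP-1 factors of the Fos and Jun families, were found on either strand in the 250 bases before the start of 7 of 51 members, or 13.7%, beside 7.82% of all promoters and 7.26% of those of the table's genes. The 7 were Anxa2, Ezr, Myl12a, Myl6b, Myo1c, S100a11 and S100a16, and Myl6b is one that fell. Anxa2 and S100a11 are shown because they are an annexin and an S100 gene with large rises in each injury and because S100a11 holds 2 matches. They cover chr9:69453433-69453682 and chr3:93520246-93520495, both on the plus strand of GRCm38.p6, with the matches in capitals 95 bases before the start in Anxa2 and 136 and 38 bases before it in S100a11:

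Anxa2: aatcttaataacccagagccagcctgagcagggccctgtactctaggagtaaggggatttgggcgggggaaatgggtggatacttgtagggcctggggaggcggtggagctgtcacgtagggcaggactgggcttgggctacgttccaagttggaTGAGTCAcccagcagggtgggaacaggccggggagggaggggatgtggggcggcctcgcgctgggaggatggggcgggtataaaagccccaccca

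S100a11: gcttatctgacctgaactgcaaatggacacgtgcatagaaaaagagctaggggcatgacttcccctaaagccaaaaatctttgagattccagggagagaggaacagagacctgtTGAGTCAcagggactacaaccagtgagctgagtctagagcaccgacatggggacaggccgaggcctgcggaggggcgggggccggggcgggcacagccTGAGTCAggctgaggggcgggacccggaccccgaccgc

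Neither window holds a CArG box, and binding was not measured.

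The injuries differed from each other in many of these genes. Rhabdomyolysis and cisplatin, which lie in the same range of identifiers and were compared directly, differed in 35 of 60 members, 24 higher and 11 lower in rhabdomyolysis, where 54.1% of all genes were called, 21.4% higher and 32.7% lower. Cisplatin was sampled at 72 h and the other injuries at 24 h, so injury and time cannot be told apart in any comparison with cisplatin. The leading genes on the rhabdomyolysis side were Myo18b and Acta2, given above, and Myo3b at 1.73 (SE 0.18, limma adjusted p 6.61e-08). Flnc was higher by 1.31 and Flna by 1.03 (limma adjusted p 4.92e-05 and 7.00e-05), and so was Anxa1 by 1.18 (9.98e-05). Cisplatin was higher for Myo7b, where the difference was −1.37 (SE 0.10, limma adjusted p 3.90e-10), S100a6 at −1.15 (5.83e-06), S100a10 at −0.92 (1.20e-05), Myh14 at −0.87 (0.000117) and, by description, Tuba8 at −0.85. Of the 6 S100 genes tested 3 were higher in cisplatin, S100a6, S100a10 and S100a11. S100a16 was higher in rhabdomyolysis, although its call was lost in 10 of 17 alternatives. S100a14 was higher there by description only, since its mean without the rhabdomyolysis mice was 0.721 CPM, under the filter.

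IRI was compared through its effect, because its libraries share an identifier range with controls 1 to 4. The IRI effect was lower than the rhabdomyolysis effect for 29 of 60 members and higher for 7, beside 23.4% and 28.6% of all genes (52.0% in either direction). With all 8 controls as 1 group, the share called in either direction was 66.7% of members and 68.2% of all genes, and the share lower in IRI 50.0% and 32.6%. Among the largest differences were those of Flnc (−3.29, SE 0.32, limma adjusted p 6.60e-08) and Tubb6 (−2.22, 2.48e-08), and edgeR on recovered reads gave −4.04 for Flnc. Myo18b had −4.55 (−9.26 with edgeR), which the filter bears on as said above. Myl6b (1.38, 9.01e-05), Pfn3 (1.02, 0.00190) and Anxa13 (1.00, 0.00969) led the other way, and for each of these the fall in IRI was the smaller. Actn1, Anxa3 and Flna had a smaller effect in IRI too, at −1.09, −1.37 and −1.05 (limma adjusted p 6.35e-05, 1.53e-05 and 0.00207).

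Against cisplatin the IRI effect was lower for 18 of 60 members and higher for 4, beside 16.8% and 13.5% of all genes (30.3% in either direction). With all 8 controls as 1 group, 43.3% of members and 46.5% of all genes were called in either direction, and 31.7% and 25.4% were called lower in IRI. Flnc (−1.99, SE 0.32, limma adjusted p 7.26e-05), Tubb6 (−1.92, 2.57e-07), S100a6 (−1.56, 3.95e-05) and, with no p for the reason given above, Tuba8 (−1.80) led on the lower side. The order among them depends on the treatment of low reads, since edgeR on recovered reads gave −3.39 for Tuba8 and −2.63 for Flnc, and a pseudocount of 0.1 gave −3.09 for Tuba8. On the higher side were Myl6b (1.42, 0.000137), Pfn3 (1.25, 0.000685), Anxa13 (0.85, 0.0394) and Myo3b (0.80, 0.0233). The Anxa13 difference lost its call in 9 of 25 alternatives, each of them a fit without 1 library (controls 4, 6, 7 or 8, cisplatin mice 1 or 2, IRI mice 1, 2 or 4), with values of 0.59 to 0.87. The Myo3b difference lost its call without control 3 (0.71), control 5 (0.70) or IRI mouse 2 (0.69). The cytoplasmic actins were not called different between the IRI and cisplatin effects, with log2 differences of −0.14 for Actb (SE 0.23, limma adjusted p 0.689) and 0.12 for Actg1 (SE 0.19, 0.681).

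**Figure D4:**
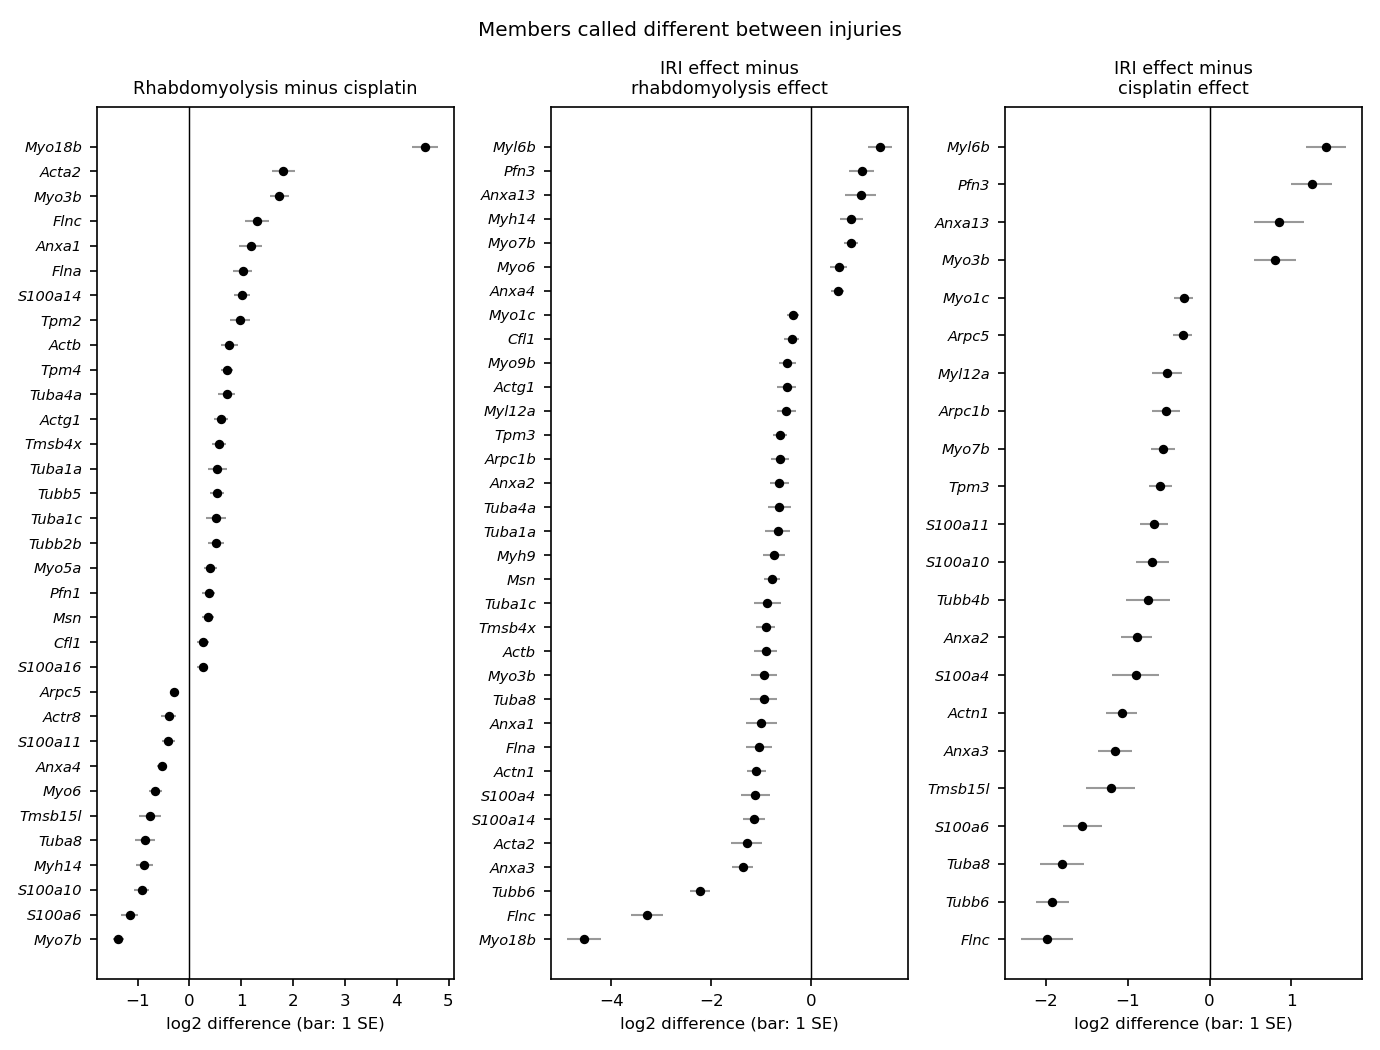
Log2 difference with 1 SE for members called different between injuries, in 3 panels: rhabdomyolysis minus cisplatin (33 of 35 members drawn), the IRI effect minus the rhabdomyolysis effect (34 of 36) and the IRI effect minus the cisplatin effect (22 of 22). Myo18b, Flnc and Tubb6 lie far to the left in the middle panel, and Myl6b, Pfn3 and Anxa13 lie to the right of 0 in the middle and right panels.

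Other regulators of the actin skeleton are given by list, beside the calls among all genes tested (40.6% higher and 40.1% lower in IRI, 48.8% and 46.5% in rhabdomyolysis, 47.8% and 44.0% in cisplatin). Of 27 genes of filament turnover and capping, 14 were in the table and 13 were tested, and 11 were higher in IRI, 13 in rhabdomyolysis and 13 in cisplatin, with 0 lower. Capg, which caps filament ends, rose from 5.11 to 12.5 CPM in the controls to 65.1 to 76.0 in IRI, 55.7 to 73.8 in rhabdomyolysis and 78.1 to 120.0 in cisplatin, and Scin, a severing protein, had log2 fold changes of 0.79, 1.02 and 2.48 (limma adjusted p 4.94e-05, 9.06e-07 and 1.23e-12). Of 32 genes of nucleation and bundling 15 were tested, with 10 higher and 3 lower in IRI and 10 higher and 4 lower in each of rhabdomyolysis and cisplatin. Vasp, which lengthens filaments, had 1.14, 2.08 and 1.60 (limma adjusted p at most 9.35e-08), while Espn, a bundler of brush border actin, had −1.72 in rhabdomyolysis (9.58e-10), −0.42 in cisplatin (0.0166) and an uncalled −0.09 in IRI (0.585).

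The SRF and MRTF targets outside the member set (16 tested of 20) had 14 higher and 1 lower in IRI, 15 and 1 in rhabdomyolysis and 14 and 1 in cisplatin, with median log2 fold changes of 0.86, 1.49 and 1.34, beside 0.08, 0.31 and 0.30 for all genes tested. Cyr61, a secreted matrix protein, went from 6.62 to 16.96 CPM in the controls to 124 to 153 in IRI, 132 to 174 in rhabdomyolysis and 237 to 314 in cisplatin, and Ankrd1, a muscle ankyrin repeat protein, had 1.64, 3.91 and 3.29 (limma adjusted p at most 7.91e-06). Fhl1 was the target called lower, at −1.06, −2.51 and −0.82 (limma adjusted p at most 2.41e-05).

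Proteins that tie actin to adhesions (13 tested of 26) had 6 higher and 5 lower in IRI, 7 and 6 in rhabdomyolysis and 8 and 5 in cisplatin, near the shares among all genes of 40.6% and 40.1%, 48.8% and 46.5%, and 47.8% and 44.0%. Tln2, a talin abundant in the kidney, fell from 239.8 to 287 CPM in the controls to 55.4 to 79.99 in IRI, 36.6 to 46.3 in rhabdomyolysis and 24.5 to 32.5 in cisplatin (limma adjusted p 5.27e-12, 1.26e-14 and 9.24e-16), and Pdlim1 rose by 0.74, 1.72 and 0.36 (0.000374, 2.08e-09 and 0.0423). Microtubule regulators and tubulin chaperones (9 tested of 28) had 7 higher and 1 lower in IRI and 6 and 2 in the other injuries, beside the tubulins' rise in 9 to 11 of 11. Map1b, a microtubule-binding protein of growing axons, went from 1.55 to 4.75 CPM in the controls to 5.51 to 10.6 in IRI, 27.0 to 41.5 in rhabdomyolysis and 6.10 to 10.4 in cisplatin (limma adjusted p 0.000273, 9.80e-11 and 0.00247), and Map1a had 1.16, 1.62 and 0.89 (2.04e-05, 9.11e-08 and 0.000284).

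Levels of different genes were compared per kilobase of annotated exon, over 63 members with an exon length. In the control cortex Actg1 was highest at 403 ± 63.6 CPM per kb (SD, n = 8), followed by Actb at 214 ± 48.0 and S100a11 at 204 ± 37.8, which did not differ beyond their spread, and Ezr at 145 ± 9.45. The order changed with injury. In cisplatin S100a11 led at 1277 ± 107 CPM per kb (SD, n = 4), above Actg1 at 619 ± 85.1 and S100a10 at 573 ± 74.3, which were within 1 SD of each other, and Actb at 414 ± 56.4. In rhabdomyolysis S100a11 stood at 963 ± 47.8 and Actg1 at 936 ± 68.7 CPM per kb, again within their spread. Pfn3 was at 95.3 ± 13.3 CPM per kb in the controls and Tuba1b at 81.8 ± 8.66, with overlapping spreads. In cisplatin Pfn3 was at 6.73 ± 0.489.

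Within the injured groups the mice did not contribute equally. Rhabdomyolysis mouse 1 held the highest level of its group for 25 of 64 members, among them Acta2, Tpm2, Tmsb4x and S100a4, and it had the highest smooth muscle, fibroblast, podocyte, endothelial and myeloid marker sums of the 4. In cisplatin, mice 2 and 3 were highest for 27 and 23 members and mouse 1 for 4. In IRI the 4 mice were highest for 14 to 17 members each.

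Of the 64 members 4 had a mean under 1 CPM and were not tested in the fit above: Anxa8, Pfn4, S100a3 and Tubg2. S100a3 had 0 reads in all 8 controls, 11 reads over the IRI mice, 29 over the rhabdomyolysis mice and 59 over the cisplatin mice. Set against the value of 3 reads in each control library, the mean of the rhabdomyolysis mice was at least 1.61-fold higher and that of the cisplatin mice at least 3.46-fold higher. Pfn4, a testis profilin, held 0.659 to 2.73 CPM in the controls and at most 0.606 CPM in any injured mouse, with 14, 8 and 16 reads over the IRI, rhabdomyolysis and cisplatin mice. Anxa8 had 73 reads in rhabdomyolysis, 51 of them in mouse 3, 50 reads in cisplatin and 12 in controls 5 to 8. Summed reads of Anxa8 in cisplatin were 2.98-fold those of controls 5 to 8 (95% counting interval 1.57 to 6.16). That interval leaves out the spread between mice, and the cisplatin mice overlapped these controls. The difference was not called by edgeR on recovered reads (adjusted p 0.0916) and was called by limma without a minimum mean (0.0464). Tubg2, a gamma-tubulin of the centrosome, had 33 reads in rhabdomyolysis, 45 in cisplatin, 13 in IRI, 19 in controls 1 to 4 and 5 in controls 5 to 8.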

How the data were processed

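Kidney cortex RNA of 20 mice was analysed from 1 table of 6025 genes in which the authors deposited values in CPM. Per the submitters' processing notes the tools were FastQC, Bowtie2 2.1.0, RSEM 1.2.15 and edgeR with GRCm38, and the order of the steps is not given in the sources used here. Per the labels' protocols the libraries were poly-A selected and stranded. Each CPM column as deposited is a whole multiple of 1 step to within 5.07e-05 of a whole number, and the whole numbers so recovered are called reads here. Whether they are RSEM estimates rounded before scaling is not given in the sources used here. For cisplatin mouse 2 the step, 0.101 CPM, lies near 0.1, but 0.0501% of its values above 0 are multiples of 0.1 CPM. Every gene listed reaches at least 1.53-fold in some injury, and 0 columns of values were left without a sample.

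Log2(CPM + 1) was fitted with limma 3.58.1 (R 4.3.3), with trended variance, 5 cells (controls 1 to 4, controls 5 to 8 and each injury), genes whose mean reached 1 CPM, and Benjamini-Hochberg adjustment over 5672 genes at a threshold of 0.05. Control sets follow the range of library identifiers, which the labels do not call a batch. The fit was also run on simulated reads in which a small part of the genes changed, and only in IRI. Most genes were called in these data, so that run does not show how the fit behaves here. Alternatives were edgeR 4.0.16 quasi-likelihood tests on recovered reads, other scalings, filters, pseudocounts and controls, the replicate number as a block, and fits without each library.

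The members, marker lists and pathway lists were chosen with earlier results of these data known. Genes were named by rule: in each role the 2 members with the largest fold change in any injury and the member that fell most, the 3 largest called differences each way between injuries, members not tested, Anxa2 with S100a10, Actb with Actg1, Ezr with Msn, and 2 genes per pathway list. Fhl1 and the other members named, among them Anxa1, Myo6, S100a4, S100a11, S100a14, Tmsb15l and Tuba1b, were chosen after their values were seen. Values of 2 members and of 1 pathway list are not reported here; the members stay in every count.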

Additional observations from a re-analysis of the deposited data

Results flagged for a closer look

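A single mouse stood far from the rest of its group for several members. In each case the gap between the highest or lowest mouse and its nearest neighbour, divided by the range of the group, was above Dixon's critical value for 95%. This occurred in 12 of 147 groups tested, where chance gives about 7.35. Only genes chosen by the naming rule were screened, and the other members were not. For Arpc1b control 2, at 46.9 CPM, had a gap share of 0.586. IRI mouse 4 stood apart for Myh14 at 16.8 CPM (gap share 0.840), Myh9 at 351 CPM (0.873) and Tubb2a at 307 CPM (0.842), and IRI mouse 1 for Tpm4 at 389.6 CPM (0.856). Cisplatin mouse 2 stood apart for Myl6b at 3.13 CPM (0.934) and Tubg2 at 1.82 CPM (0.919). Rhabdomyolysis mouse 2 was low for Myo3b at 11.5 CPM (0.902), and rhabdomyolysis mouse 1 was high for Tpm2 at 66.9 CPM (0.880). Pfn4 in control 4 was at 2.73 CPM (0.571). Myo18b in IRI mouse 2 and cisplatin mouse 4 had a gap share of 1, which rests on 1 read each.

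The injuries' effects also differed from each other. By limma's test of the difference, the IRI and rhabdomyolysis effects differed in 36 of 60 members, beside 52.0% of all genes tested, and the IRI and cisplatin effects in 22 of 60, beside 30.3%. With all 8 controls as 1 group these shares were 66.7% of members beside 68.2% of all genes, and 43.3% beside 46.5%, so the members' share no longer lay above that of all genes.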

How the results depend on the processing

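Of 3025 values recomputed for 158 log2 differences of genes chosen by the naming rule, 2922 kept their direction and side of the threshold, 98 lost their call, 3 gained one and 2 changed sign. The latter were Tuba8 in IRI, an uncalled value that became 0.0058 with 75th percentile scaling and 0.13 with all 8 controls. Over all 60 tested members and 6 comparisons, 32 of 360 values changed sign under 1 or more alternatives, and 0 of these 32 had been called. They include Tubb4a in IRI, in 8 of 17 alternatives (−0.35 to 0.15), and Actb between the IRI and cisplatin effects, in 1 of 25 (up to 0.06). Counts of members called stayed within 1.5 times the reported ones. Without each library in turn they ranged from 54 to 56 of 60 in IRI, 59 to 60 in rhabdomyolysis and 55 to 56 in cisplatin. All genes tested were then called at 76.4% to 79.8%, 93.4% to 94.8% and 88.9% to 91.8%. Members called ranged from 30 to 35 between rhabdomyolysis and cisplatin, beside 47.7% to 53.4% of all genes. They ranged from 31 to 36 between the IRI and rhabdomyolysis effects, beside 47.5% to 52.9%. Between the IRI and cisplatin effects they ranged from 17 to 23, beside 25.7% to 32.1%. Quantile normalization moved the median of all genes by −0.16 in rhabdomyolysis and −0.27 in cisplatin, and 75th percentile scaling by 0.11 in IRI and 0.14 in rhabdomyolysis. Calls were kept under every alternative run by 51 of 56 members in IRI, 58 of 60 in rhabdomyolysis and 52 of 56 in cisplatin, and by 26 of 35, 30 of 36 and 13 of 22 in the comparisons between injuries. The number of all genes called between the IRI and cisplatin effects rose from 1716 to 2636 with all 8 controls.

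Same-numbered libraries did not deviate together, with correlations of 0.06, −0.11, 0.18 and −0.05 for IRI and controls 1 to 4 and −0.10, −0.21, 0.03 and 0.32 for rhabdomyolysis and cisplatin, and not every library correlated best with its own number. With the replicate number as a block, 54 members (45 higher and 9 lower) were called in IRI and 31 (19 and 12) between rhabdomyolysis and cisplatin. These are 90.0% and 51.7% of the members tested. Of all genes tested, 77.8% (39.0% higher and 38.7% lower) and 50.0% (19.8% and 30.2%) were called. Between rhabdomyolysis and cisplatin the members' share in either direction thus lay near that of all genes.

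Depth limits the low members. The 8 members with fewer than 10 reads in each of the 8 controls were Anxa8, Flnc, Myo18b, S100a14, S100a3, Tuba8, Tubb4a and Tubg2, so their values rest on few reads and S100a3 has only a lower bound. Called values against the controls moved by over 1.5-fold for 6 members with a pseudocount of 0.1 and for 7 with edgeR on recovered reads, and for Actb, Actg1 and Ezr with quantile normalization. Called differences between injuries moved as far for Flnc, Myo18b, S100a14 and Tuba8 with edgeR, for Myo18b and Tuba8 with a pseudocount of 0.1, and for Tmsb15l between the IRI and cisplatin effects with all 8 controls (−1.21 to −0.34, no longer called).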
